A study of Mus musculus with 2 samples.

Results

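The levels of 10 genes of hepatic endothelium were followed in liver of mouse embryos at embryonic day 11.5. They are the hyaluronan receptors Lyve1 and Stab2, the growth factor receptors Kdr and Tek, the co-receptor Eng, the junction genes Pecam1, Cdh5 and Esam, the secreted factor Egfl7 and the surface mucin Emcn. The list was taken by symbol, and all 10 symbols matched a row among the 43346 Ensembl genes of the deposited tables. The series holds 2 libraries of 1 group, which the labels number as biological replicates 1 and 2. Both came from livers of healthy B6NCrl embryos at 11.5 days, with male and female embryos pooled and no genotype change or treatment named. The label of replicate 1 gives 109 embryos in its pool. The input of a library was RNA longer than 200 nucleotides, in an amount the labels give as 1 cell-equivalent, and the SmartSeq protocol used turns polyadenylated RNA into cDNA that is amplified by PCR. The labels call the assay single-cell RNA-seq although the source is pooled tissue. There is no other condition, so the values are levels within the tissue and differences between its libraries, for which the design allows no p-value. The labels give the libraries separate biosamples and the same strain record.

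At this stage the liver bud is invaded and perfused by blood vessels that become the sinusoids, the wide, leaky capillaries of the liver. Sinusoidal endothelial cells clear hyaluronan and other waste molecules through scavenger receptors, and they send growth signals to hepatoblasts. Endothelial cells in general depend on VEGF signalling through Kdr, on angiopoietin signalling through Tek and on BMP signalling through Eng, and they are held together by junctions built on Cdh5.

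The total expected count, the estimated number of reads given to all rows, came to 33289699 reads for replicate 1 and 32607453 for replicate 2. A gene with no read was limited by counting to 3 reads, or 0.0901 and 0.092 CPM (reads per 1000000 reads) in replicates 1 and 2. These limits cover counting error only, because PCR copies are not independent molecules. At a TPM (transcripts per 1000000, a relative abundance corrected for length) of at least 1, the count of detected genes was 8922 for replicate 1 and 8342 for replicate 2. Markers of the tissue were described from lists chosen with earlier results of these data known, so they are no independent check of the label. All 8 erythroid markers and 8 of 9 hepatoblast markers were detected in both libraries, where 27.3% of protein-coding genes were. Their summed levels were 1369 to 1478 TPM and 9887 to 11344 TPM. The hepatoblast marker Hnf4a had 34.8 TPM in replicate 1 and no read in replicate 2.

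The endothelial genes formed a small part of the RNA, of similar size in both libraries. Their summed TPM was 161 in replicate 1 and 175 in replicate 2, a mean of 168 ± 9.57 (SD, n = 2), or 0.0168% ± 0.000957 of all TPM. Their summed reads were 12052 and 12159. In bulk tissue, fewer endothelial cells and less RNA per endothelial cell cannot be told apart, so these sums are no measure of cell number.

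Of the 10 genes, 7 were detected in both libraries (Lyve1, Esam, Egfl7, Stab2, Emcn, Eng and Kdr), 3 in replicate 2 alone (Tek, Pecam1 and Cdh5), and none in replicate 1 alone or in neither. Over all Ensembl genes, 15% were detected in both libraries and 4.29% in replicate 2 alone. Over protein-coding genes these shares were 27.3% and 7.07%. Of the genes detected in at least 1 library, 60.1% were detected in both and 17.3% in replicate 2 alone. Detection followed level. All 5 endothelial genes with a mean TPM from 20 to under 50 were detected in both libraries, where 81.6% of all genes at that level were. Eng was the only one from 10 to under 20, where the share was 52.3%, and Kdr the only one from 5 to under 10, where it was 37.9%. Tek and Pecam1, from 1 to under 5, were each found in 1 library, where 22.7% of genes were found in both. In replicate 2 they stood at 7.28 and 6.88 TPM, near Kdr at 8.39, so level in that library did not set them apart from Kdr.

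**Figure D1:**
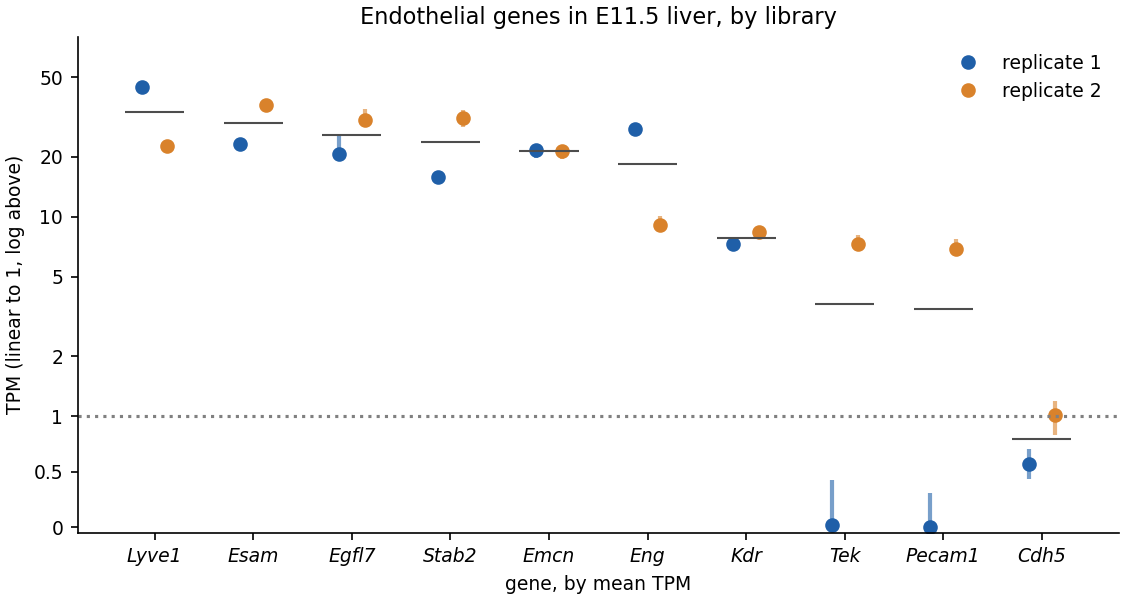
TPM of the 10 endothelial genes in replicate 1 (blue) and replicate 2 (orange), with the deposited credibility interval as a vertical line, the mean as a horizontal bar and the detection level of TPM 1 as a dotted line. The axis is linear up to 1 and logarithmic above. Emcn and Kdr had nearly the same level in both libraries, whereas Tek and Pecam1 were near 0 in replicate 1 and near 7 TPM in replicate 2.

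The receptors for hyaluronan, a long sugar polymer of the matrix, were among the higher genes. Lyve1, which binds hyaluronan on lymphatic and sinusoidal endothelium (chromosome 7, 110850607 to 110863239, mm10, minus strand), had 44.6 TPM from 3305 reads in replicate 1 and 22.6 TPM from 1666 reads in replicate 2. Its mean of 33.6 ± 15.5 TPM (SD, n = 2) was the highest of the 10. Replicate 1 was the higher library on both scales, and the deposited credibility intervals, 42.3 to 45.3 and 21.2 to 23.3 TPM, did not overlap. Those intervals describe read assignment and counting within a library and leave out the spread between libraries.

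Stab2, the scavenger receptor that takes up hyaluronan in the sinusoids (chromosome 10, 86841198 to 87008025, minus strand), had 15.9 TPM from 1822 reads in replicate 1 and 31.4 TPM from 3112 reads in replicate 2. Its mean was 23.7 ± 10.9 TPM. By gene TPM the libraries thus ranked these receptors in opposite order. Lyve1 was at rank 1 and Stab2 at rank 6 of the 10 in replicate 1, and Lyve1 at rank 4 and Stab2 at rank 2 in replicate 2. The reversal depended on how length was counted. As CPM divided by the kilobases of the longest listed transcript, Lyve1 exceeded Stab2 in both libraries. The values were 38.1 against 6.65 in replicate 1 and 19.6 against 11.6 in replicate 2.

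Of the growth factor receptors, Kdr was repeatable and Tek was not. Kdr, the main VEGF receptor of endothelium (chromosome 5, 75932827 to 75978458, minus strand), had 7.35 TPM from 1266 reads in replicate 1 and 8.39 TPM from 1436 reads in replicate 2, a mean of 7.87 ± 0.735 TPM. Tek, the angiopoietin receptor also called Tie2 (chromosome 4, 94739289 to 94874976, plus strand), had 0.02 TPM from 3 reads in replicate 1 and 7.28 TPM from 971 reads in replicate 2. Its share of reads in replicate 2 was 330 times that in replicate 1, with an exact 95% interval of 113 to 1605 that covers read counting only. The deposited credibility intervals of Tek, 0.0195 to 0.431 TPM in replicate 1 and 6.83 to 8.16 in replicate 2, allow a smaller ratio. In replicate 2 Tek stood close below Kdr, and in replicate 1 it was below the detection level.

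Eng, or endoglin, an accessory receptor for BMP and TGF-beta ligands (chromosome 2, 32646595 to 32682669, plus strand), had 27.7 TPM from 2699 reads in replicate 1 and 9.12 TPM from 889 reads in replicate 2, a mean of 18.4 ± 13.1 TPM. Its ratio between the libraries was the widest among the 7 genes detected in both, while its difference in TPM was smaller than that of Lyve1. It held rank 2 of the 10 in replicate 1 and rank 6 in replicate 2.

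The 3 junction genes were measured at unlike levels. Esam, an immunoglobulin-type adhesion molecule of tight junctions (chromosome 9, 37528078 to 37538319, plus strand), had 23.2 TPM from 1209 reads in replicate 1 and 36.3 TPM from 1880 reads in replicate 2, a mean of 29.7 ± 9.29 TPM. Pecam1, the adhesion molecule CD31 (chromosome 11, 106654217 to 106750628, minus strand), had no read in replicate 1 and 6.88 TPM from 621 reads in replicate 2. If replicate 1 is set at the limit of 3 reads, the read share of Pecam1 was 211-fold higher in replicate 2. The exact 95% interval of the ratio, of the kind given for Tek, begins at 171. Both values allow for read counting only and do not bound the RNA. The deposited credibility intervals of Pecam1, 0.0475 to 0.312 TPM in replicate 1 and 6.4 to 7.76 in replicate 2, allow a smaller ratio.

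Cdh5, the VE-cadherin of endothelial adherens junctions (chromosome 8, 104101625 to 104144511, plus strand), was the lowest gene, with 0.57 TPM from 66 reads in replicate 1 and 1.02 TPM from 117 reads in replicate 2. It lay just below the detection level in replicate 1 and just above it in replicate 2, and its credibility interval in replicate 2, 0.831 to 1.19 TPM, spanned that level. Its place among the genes found in 1 library alone therefore rests on the threshold. Its share of reads was 1.81 times as high in replicate 2 (exact 95% interval 1.33 to 2.49, read counting only). Esam exceeded Cdh5 in both libraries.

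Egfl7, a secreted matrix protein of endothelium (chromosome 2, 26580014 to 26593120, plus strand), had 20.6 TPM from 709 reads in replicate 1 and 30.7 TPM from 533 reads in replicate 2, a mean of 25.6 ± 7.13 TPM. Its TPM was higher in replicate 2 while its reads were fewer there. Emcn, the sialomucin endomucin of capillary and venous endothelium (chromosome 3, 137341067 to 137432185, plus strand), was the most repeatable of the 10. It had 21.6 TPM from 973 reads in replicate 1 and 21.4 TPM from 934 reads in replicate 2, a mean of 21.5 ± 0.156 TPM.

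In the order of mean TPM, from Lyve1 through Esam, Egfl7, Stab2, Emcn, Eng, Kdr, Tek and Pecam1 to Cdh5, 7 of the 9 neighbouring pairs had overlapping values. The pairs that did not overlap were Eng above Kdr, at a lowest value of 9.12 against a highest of 8.39 TPM, and Kdr above Tek, at 7.35 against 7.28 TPM. The first 6 genes therefore have no resolved order among neighbours. When levels were taken as CPM divided by the kilobases of the longest listed transcript, Lyve1 and Esam kept ranks 1 and 2, Eng took rank 3 at 15.8 ± 11.1, and Egfl7 and Stab2 took ranks 4 and 5 at 10.1 ± 1.88 and 9.13 ± 3.5 (SD, n = 2). The ranks of Eng, Egfl7, Stab2 and Emcn thus depended on how length was counted.

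The libraries were then compared gene by gene as the log2 ratio of TPM, replicate 1 over replicate 2, with a pseudocount of 1. This scale understates differences of low genes. Of the 6 endothelial genes that averaged 10 TPM or more, only Eng passed a 2-fold rule of size, at 1.5, higher in replicate 1. Lyve1 at 0.95 and Stab2 at -0.94 lay just inside it, followed by Esam at -0.63 and Egfl7 at -0.55, with Emcn at 0.01. Of the 6801 genes at that level, 25.6% were past 2-fold with replicate 1 higher, 25.6% with replicate 2 higher and 51.2% in either direction. Among those with a mean TPM from 10 to under 50, 65% were. The median absolute log2 ratio was 0.78 over the 6 endothelial genes, 1.04 over the 6801 genes and 1.73 over those under 50. These are descriptions of 2 libraries, with no test. For the 9 endothelial genes whose mean TPM reached 1 the median log2 ratio was -0.55, against 0.07 for the 10351 genes at that level. That median was the value of Egfl7, which was the higher in replicate 1 by CPM. Taken from CPM, the median of the 9 was -0.21. Over the 6 endothelial genes averaging 10 TPM or more the TPM median was -0.27, against -0.03 for the 6801 genes. When ratios were centred on the spike-in RNAs the medians of -0.55 and 0.07 became -0.13 and 0.49. Centring takes 1 constant from every ratio, so the gap between them could not change.

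**Figure D2:**
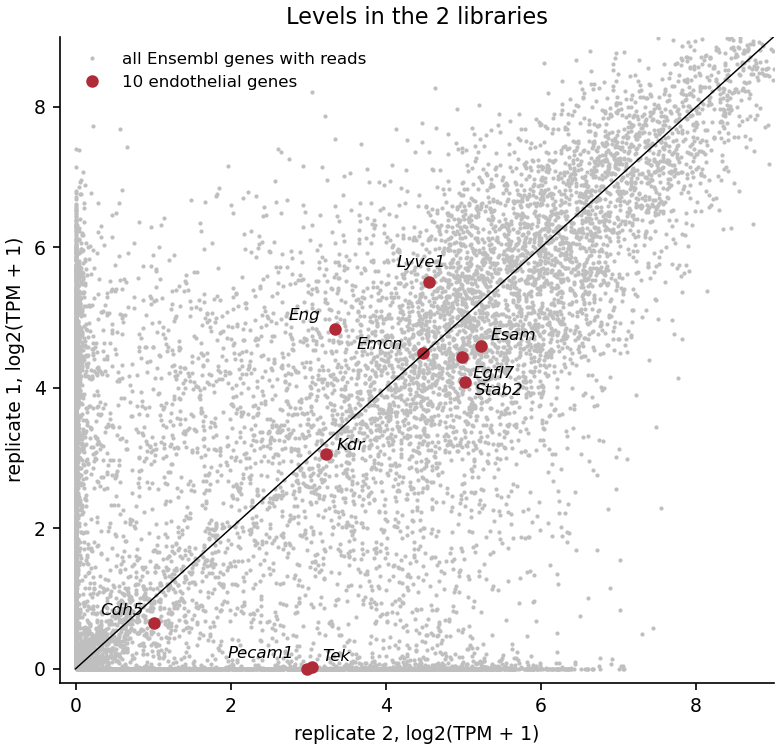
Level in replicate 1 against replicate 2 as log2(TPM + 1) for the 10 endothelial genes (red) and all Ensembl genes with reads (grey), with the line of equal levels. Axes end at 9, which leaves out the highest genes. Emcn and Kdr lay on or near the line, Eng and Lyve1 above it, and Tek and Pecam1 on the floor of replicate 1, where many other genes lay too.

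Markers of other cells moved between the libraries as well. The 9 heart markers summed to 11.3 TPM in replicate 1 and 246 TPM in replicate 2. Of them, 5 were detected in replicate 2 alone, as were 4.29% of all Ensembl genes and 7.07% of protein-coding genes. Tek, Pecam1 and Cdh5 also reached TPM 1 in that library alone. Myl7, a myosin light chain of heart atria, was unread in replicate 1 and at 93.5 TPM in replicate 2, while Nppa and Myh7 had no read in either. The endocardium, the inner lining of the heart, is itself endothelium, and its marker Nfatc1 had 0.59 and 4.51 TPM in replicates 1 and 2, with Npr3 at 3.99 and 3. Their part in the results for Tek, Pecam1 and Cdh5 was not tested.

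Several of the endothelial genes are also made by blood cells. Lyve1 is known from some macrophages, Pecam1 from platelets and macrophages, and Tek, Esam and Emcn from blood stem cells. The 12 macrophage markers summed to 497 TPM in replicate 1 and 315 in replicate 2, with 7 detected in both and Cd68 and Cd163 unread. The 9 megakaryocyte markers summed to 1047 and 1215 TPM, with 4 detected in both and Pf4, platelet factor 4, at 754 and 998. The 9 stem and progenitor markers summed to 111 and 136 TPM, with 3 detected in both and Procr unread. The 10 mesenchymal markers summed to 285 and 595 TPM, with 7 detected in both. Detected in replicates 1 and 2 alone were 2 and 1 macrophage, 4 and 1 megakaryocyte, 2 and 2 stem and progenitor and 3 and 0 mesenchymal markers. The part of these cells in the endothelial values was not tested.

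The transcript tables show how the gene values arose. The 10 genes had 56 listed transcripts, of which 26 had a TPM above 0 in at least 1 library. Of the 5 endothelial genes that averaged at least 10 TPM and had more than 1 listed transcript, 3 (Stab2, Egfl7 and Eng) had a different leading transcript, the one with the highest TPM, in each library. Over all 4445 genes compared in this way 37.5% did. Emcn and Esam kept theirs. Lyve1 and Cdh5 had 1 listed transcript each, and Kdr reads were all given to 1.

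Stab2 was divided among transcripts of very unlike length. Its full-length coding transcript of 8228 bases took 375 reads in replicate 1 and 2871 in replicate 2, or 20.6% and 92.3% of the gene's reads. In replicate 1 the leading transcript was one of 3504 bases, with 1447 reads and 90.2% of the gene's TPM. In replicate 2 it was one of 523 bases, with 241 reads. That short transcript held 7.75% of the reads and 61.7% of the TPM, because TPM divides reads by length. Neither shorter transcript was matched in release M21 of the annotation. The TPM of the full-length transcript alone was 1.56 in replicate 1 and 12 in replicate 2, a wider ratio than that of the whole gene.

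Egfl7 had 19 listed transcripts, the most of the 10 genes, and 9 of them had reads. In replicate 1 the leading transcript was a coding one of 1372 bases with 301 of 709 reads and 38.9% of the gene's TPM, and it had no read in replicate 2. In replicate 2 the leading transcript was one of 521 bases, whose start is annotated as not found, with 250 of 533 reads and 65.8% of the TPM. The effective length of the gene, the length used to turn reads into TPM, was 1164 bases in replicate 1 and 591 in replicate 2. Egfl7 had 21.3 CPM in replicate 1 and 16.3 in replicate 2, so reads and TPM named different libraries as the higher. This held for 4.79% of the 6801 genes averaging at least 10 TPM, and for Egfl7 alone among the 6 endothelial genes at that level.

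**Figure D3:**
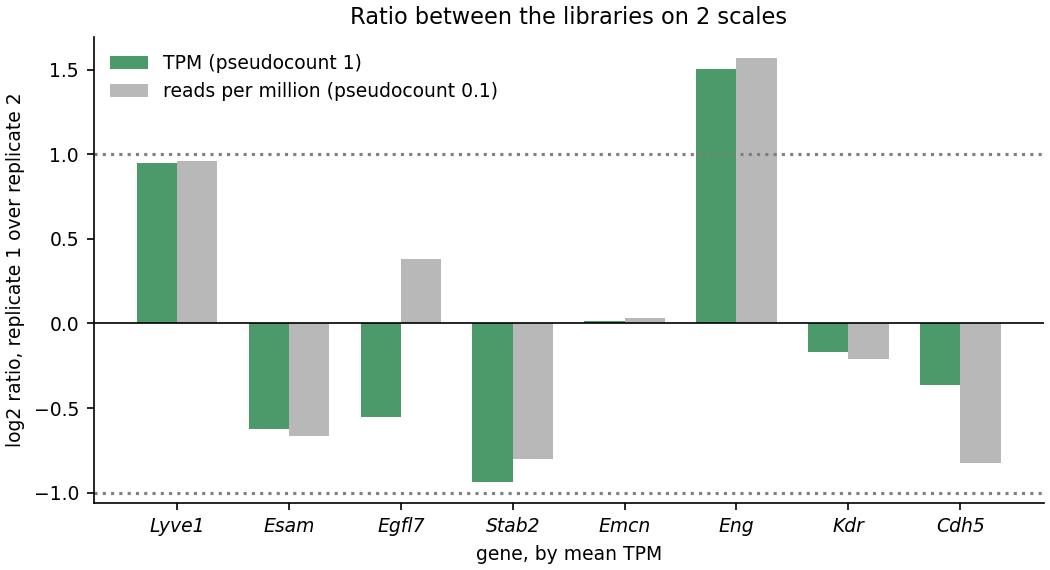
Log2 ratio between the libraries, replicate 1 over replicate 2, from TPM (green, pseudocount 1) and from CPM, or reads per 1000000 (grey, pseudocount 0.1), for the 8 genes with more than 10 reads in each library. Dotted lines mark 2-fold. The scales had the same sign except for Egfl7, at -0.55 from TPM and 0.38 from CPM.

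Eng was divided mainly between coding transcripts of 3403 and 3422 bases. The shorter led in replicate 1 with 15.9 TPM and 57.4% of the gene's abundance, and the longer led in replicate 2 with 6.24 TPM and 68.5%. Both transcripts were higher in replicate 1, at 15.9 and 10.9 TPM, than in replicate 2, at 2.88 and 6.24 TPM. As their lengths are nearly equal, the gene's TPM did not hinge on this division. Emcn had its coding transcript of 1357 bases at 16.9 and 17.4 TPM in replicates 1 and 2, and that of 2588 bases at 4.68 and 3.99. In replicate 2, Tek reads went mainly to a coding transcript of 4654 bases at 6.12 TPM, and Pecam1 reads to one of 3233 bases at 5.02 TPM.

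**Figure D4:**
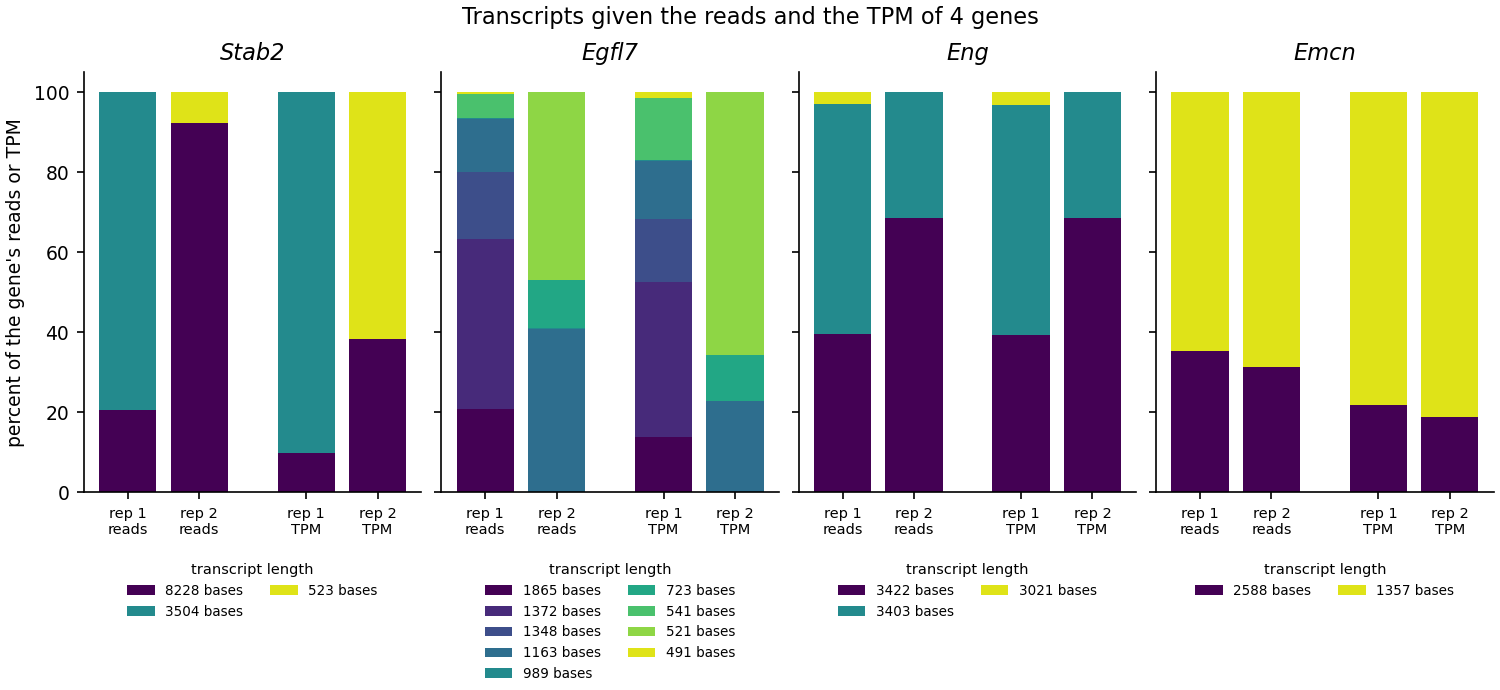
Share of the reads (left pair of bars) and of the TPM (right pair) that the deposited tables gave to each transcript of Stab2, Egfl7, Eng and Emcn in replicate 1 and replicate 2, coloured from the longest (dark) to the shortest (light). The 523-base transcript of Stab2 took 7.75% of the reads and 61.7% of the TPM in replicate 2, while Emcn was divided alike in both libraries.

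The Egfl7 transcripts also differed in where they start. Promoter sequences from RefSeq (build GRCm38.p6, the assembly of mm10) were held for 6 of the 10 genes in 8 windows, 3 of them for Egfl7. For the count of transcript starts, a window ran from 250 bases upstream of the RefSeq start to 50 bases after it. Transcripts that begin in the second window took 568 of the Egfl7 reads in replicate 1, or 80.2%, and none in replicate 2. Those that begin in the third took 135 reads in replicate 1 and 218 in replicate 2, or 19% and 40.9%. Transcripts that begin outside the windows took 5.85 and 315 reads, or 0.825% and 59.1%, and in replicate 2 most of these were on the 521-base transcript, whose true start is not annotated. The assignment to a start thus differed between the libraries, and whether that reflects starts in the cells or the division of reads was not tested.

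The 250 bases upstream of the start are printed for the second and the third Egfl7 window, to which reads were assigned unequally, and for Eng and Emcn, whose ratios between the libraries were the widest and the narrowest of the genes detected in both. Capitals mark AGGAAG on either strand, a form of the core motif of ETS factors, a family known to act on many endothelial genes. The printed bases are chr2:26583615-26583864 and chr2:26586386-26586635 for Egfl7, chr2:32646345-32646594 for Eng and chr3:137340828-137341077 for Emcn, all on the plus strand. They leave out the 50 bases after the start, in which some of the counted Egfl7 transcripts begin. The last printed bases of Emcn lie inside the annotated 2588-base transcript. The leading Emcn transcript of 1357 bases begins downstream of the printed bases.
Egfl7, window 2: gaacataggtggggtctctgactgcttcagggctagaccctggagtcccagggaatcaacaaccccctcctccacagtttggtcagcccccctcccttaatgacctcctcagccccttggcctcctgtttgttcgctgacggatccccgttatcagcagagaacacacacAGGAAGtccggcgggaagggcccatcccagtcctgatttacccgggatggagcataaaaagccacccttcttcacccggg
Egfl7, window 3: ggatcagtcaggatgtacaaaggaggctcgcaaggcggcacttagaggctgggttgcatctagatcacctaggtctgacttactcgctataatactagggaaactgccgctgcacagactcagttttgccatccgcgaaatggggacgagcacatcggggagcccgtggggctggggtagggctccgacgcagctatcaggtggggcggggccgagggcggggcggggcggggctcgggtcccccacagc
Eng: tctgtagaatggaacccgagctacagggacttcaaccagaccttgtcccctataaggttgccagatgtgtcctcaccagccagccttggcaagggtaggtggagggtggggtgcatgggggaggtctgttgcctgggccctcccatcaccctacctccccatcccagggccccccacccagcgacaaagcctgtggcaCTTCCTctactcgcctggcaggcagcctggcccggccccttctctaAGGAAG
Emcn: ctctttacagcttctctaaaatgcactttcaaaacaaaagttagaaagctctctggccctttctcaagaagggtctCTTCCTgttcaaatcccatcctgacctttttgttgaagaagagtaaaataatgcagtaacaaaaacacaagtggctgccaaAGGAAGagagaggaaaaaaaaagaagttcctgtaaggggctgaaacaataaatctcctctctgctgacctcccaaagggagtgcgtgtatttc

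The windows for Egfl7 were unlike in their motifs. The second held AGGAAG once, at 80 to 75 bases upstream of the start, and the third held none and was 63.2% G and C. Eng held it at 52 to 47 and at 6 to 1 bases upstream, and Emcn at 174 to 169 and 93 to 88. Of the 8 windows, 5 held AGGAAG, in 4 of the 6 genes, against 29.5% of 32851 RefSeq windows of the same length. None held the related CGGAAG, the form AGATAA of the GATA motif or the TATA box letters TATAAA. These stood in 13.6%, 9.99% and 12.4% of all windows, and other forms of the motifs were not searched. The 8 windows include 3 of 1 gene, and a match of letters is a description, not a binding site.

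The partners of these genes were described from 9 lists holding 106 other genes, of which 38 were detected in both libraries, 13 in replicate 1 alone, 14 in replicate 2 alone and 41 in neither. This was 35.8% in both, against the 27.3% of protein-coding genes given above.

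Of 10 other genes of VEGF signalling, the ligands, receptors and co-receptors with the phospholipase Plcg1, 2 were detected in both libraries, 2 in replicate 1 alone, 3 in replicate 2 alone and 3 in neither. The co-receptor Nrp1 had 10.9 and 13.2 TPM in replicates 1 and 2. Flt1, a high-affinity receptor that holds VEGF away from Kdr, had 0.63 and 27.1 TPM. The ligand Vegfb had 23.3 TPM and no read. Vegfc, Vegfd and Pgf were under TPM 1 in both libraries. Kdr was nearly equal in the libraries while the receptor Flt1 and the ligand Vegfb were each found in 1 of them.

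Of the 5 angiopoietin genes, Tie1, the relative and partner of Tek, was the 1 detected in both libraries, at 10.3 and 2.46 TPM in replicates 1 and 2. The ligand Angpt1 had 0.16 TPM and no read, and Angpt2, Angpt4 and the phosphatase Ptprb had no read in either. Tie1 was higher in the library in which Tek was below the detection level.

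Around Eng, 6 of 13 ligands, receptors, Smad signal transducers and targets were detected in both libraries, 2 in each library alone and 3 in neither. Gdf2, which encodes the ligand BMP9, had 18.4 TPM in replicate 1 and 38.9 in replicate 2. The target gene Id3 had 330 and 76.5 TPM in replicates 1 and 2, and Id1 had 50.4 and 32.5. Both are expressed in many cell types. Acvrl1, the receptor that binds BMP9 with Eng, Smad7 and Bmp10 had no read in either. Id3, like Eng, was higher in replicate 1, and the ligand was higher in replicate 2.

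Of 11 junction partners, 9 were detected in both libraries, 1 in each library alone and none in neither. Ctnnb1, the beta-catenin that binds cadherin tails, had 124 and 63.7 TPM in replicates 1 and 2, Ctnna1 48.3 and 27.3, and F11r, a tight junction protein, 44.1 and 26.8. These genes are not specific to endothelium and are also made by hepatoblasts. All 3 stood far above Cdh5.

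Of 19 transcription factors of endothelium, 8 were detected in both libraries, 2 in replicate 1 alone, 1 in replicate 2 alone and 8 in neither. Lmo2, shared with blood cells, had 181 and 85.9 TPM in replicates 1 and 2, Hhex, shared with hepatoblasts, 33 and 71.1, and the ETS factor Fli1, shared with megakaryocytes, 7.7 and 33.8. The endothelial ETS factor Erg had 0.15 TPM and no read, and Ets2 and Elk3 were under TPM 1 in both. The highest factors were thus ones that other cells of the liver make too.

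Of 12 other genes of sinusoidal endothelium, 1 was detected in both libraries, 3 in replicate 1 alone, 2 in replicate 2 alone and 6 in neither. Stab1, the relative of Stab2, was the 1 found in both, at 4.83 TPM from 20.4 reads in replicate 1 and 2.3 TPM from 64.1 reads in replicate 2. It was named after its values were seen. Its TPM was higher in replicate 1 while its reads were more in replicate 2. Cdh5 had more reads in each library, 66 and 117, and yet only 0.57 and 1.02 TPM. As TPM divides reads by length, the detection of Stab1 in both rests on few reads and on the length given to it, which was not examined. Oit3 had 33.7 TPM and no read in replicates 1 and 2, the scavenger receptor Cd36 had 12.3 and 0.21, and Gpr182 had no read and 11.8. The Fc receptor Fcgr2b, the lectin Clec4g and the clotting factor F8, all genes of mature sinusoids, had no read in either. At this depth and input they were not detected, and absence cannot be read from that.

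Of 22 pan-endothelial genes, 6 were detected in both libraries, 3 in replicate 1 alone, 4 in replicate 2 alone and 9 in neither. Ramp2, a subunit of the adrenomedullin receptor, had 54.7 and 65.5 TPM in replicates 1 and 2, which was above each of the 10 endothelial genes in each library. Cd34, shared with blood stem cells, had 27.8 and 57.8, and Vwf, the von Willebrand factor shared with megakaryocytes, 22.4 and 53.3. Robo4 had 0.25 TPM and no read, and Mmrn2 and Ptprb had no read in either.

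Of 10 Notch and arteriovenous genes, 3 were detected in both libraries, 2 in replicate 2 alone and 5 in neither. The arterial ligand Efnb2 had 10.4 and 8.11 TPM in replicates 1 and 2, its venous receptor Ephb4 had 7.83 and 2.62, and the Notch target Hey1 had 0.01 and 6.37. Notch1 was under TPM 1 in both, and Notch4 and Dll4 had no read.

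Of 7 genes that make, bind or break down hyaluronan, the ligand of Lyve1 and Stab2, 3 were detected in both libraries and 4 in neither. The hyaluronidase Hyal2 had 93.8 and 71.5 TPM in replicates 1 and 2, Hmmr, a hyaluronan binder that also acts on the mitotic spindle, 20.9 and 94, and the receptor Cd44 16.1 and 1.77. The synthase Has1 had 0.02 TPM and no read, and Has2 and Has3 had no read in either.

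**Figure D5:**
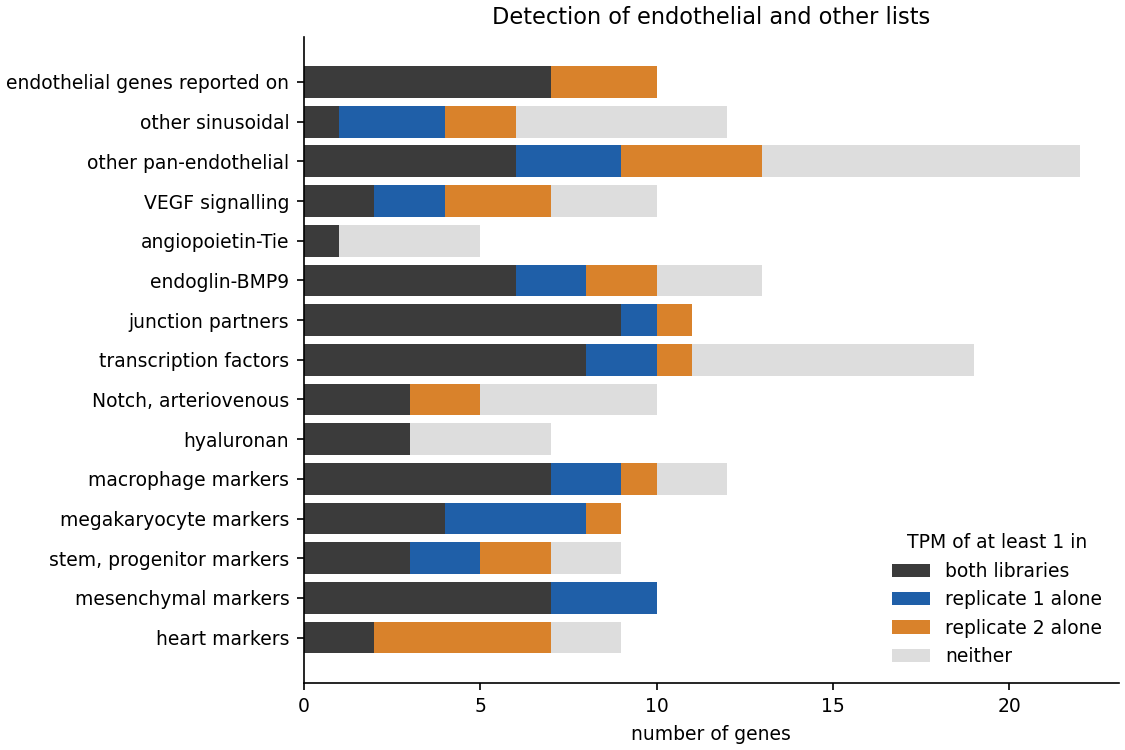
Number of genes reaching TPM 1 in both libraries, in replicate 1 alone, in replicate 2 alone or in neither, for the 10 endothelial genes (top), 9 lists of their partners and 5 lists of other cells. The 10 endothelial genes had no member in neither library, the junction partners had 9 of 11 in both, and the other sinusoidal genes 1 of 12.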

How the data were processed

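RNA of 2 embryonic liver libraries was measured, and per the labels both belong to 1 group. The deposited tables give, per gene and transcript, expected counts (estimated reads), TPM, posterior mean TPM and FPKM, with credibility bounds of TPM (read as a signal), the effective length in bases and, per transcript, the percent of its gene's abundance. Per the file headers these are the authors' own estimates, and the deposited readme files name mm10 and GENCODE release M4. For the aligner, the quantification program, the use of strand and the level of the credibility bounds the entry is: not given in the sources used here. Spike-ins (97 rows) and 26248 rows with numeric identifiers stayed in TPM totals and out of gene comparisons. Symbols and mm10 coordinates came from release M21 by identifier without version, and 42462 of 43346 genes matched.

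Detection was set at TPM 1. Ratios were log2 with a pseudocount of 1, and a 2-fold rule was applied at a mean TPM of at least 10. SDs are over n = 2. With 1 group no test between conditions exists. Intervals for read ratios are exact binomial at 95%. A chi-square of the libraries' reads over the 11205 genes whose reads summed to 20 or more came to 814 for each degree of freedom, so they are not 1 library deposited again. The labels give separate biosamples, and the SD also holds technical spread. All 10 endothelial genes were named. Of each partner list, the 3 highest by mean TPM and up to 3 under TPM 1 in both libraries were named. Stab1 was added after its values were seen. Of other-cell lists only some are named. The genes and lists were chosen with earlier results of these data known. Functions were tested on simulated data. Analyses used Python 3.11.15, pandas 2.3.3, scipy 1.17.1 and matplotlib 3.10.9.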

Additional observations from a re-analysis of the deposited data

How the results depend on the processing

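The number of endothelial genes detected in both libraries ranged from 5 to 8 over the 7 other thresholds and scales tried, against 7. Their mean summed TPM was 168, and 161 to 175 when 1 library was left out. It was 181 without spike-ins and numeric rows and 201 without globins as well, where the remaining rows were rescaled to the same total. On other scales it was 383 CPM and, in an alternative chosen after seeing the data, 111 CPM per kilobase of the longest transcript. The median log2 ratio, replicate 1 over replicate 2, was -0.55 from TPM and -0.21 from CPM. The TPM median moved to -0.13 when centred on the spike-ins, whose median was -0.42, and the median of all genes moved alike to 0.49. Genes past 2-fold numbered 1, and 2 (with Lyve1) when centred on the spike-ins, while 3 passed with no filter on mean TPM and 3 at a mean TPM of at least 1, a filter chosen after seeing the data, because Tek and Pecam1 then entered. Of 81 alternatives run, 68 moved a value by less than the spread between replicates or a count by less than 1.5 times, 13 moved it further and 0 reversed a direction. Among single genes, the per-kilobase scale moved Egfl7, Stab2, Emcn and Kdr by more than their SD, and posterior mean TPM moved Emcn. Without replicate 1, all 10 genes count as detected, and without replicate 2, 7 do. With n = 2, leaving out a library cannot move a mean by more than its SD, and FPKM rescaled to the TPM total is TPM again. The outcomes of these alternatives were fixed in advance, and they are counted among the 68. That count is therefore no measure of stability. No paired analysis was possible because there is 1 group. At 1 cell-equivalent of input, a gene at 0 was not detected; absence cannot be read from it.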

Other observations

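Some endothelial genes share bases with other genes. The last 64 bases of Egfl7 overlap Agpat2 on the other strand, which stood at 42.4 and 73.7 TPM in replicates 1 and 2. Of the listed Egfl7 transcripts, only that of 1865 bases reaches this overlap. It was given 147 reads in replicate 1 and none in replicate 2. The last 61 bases of Eng overlap Fpgs on the other strand, at 22.1 and 26.8 TPM. As the use of strand is not given, reads in the shared bases cannot be told apart. Mir126a, a microRNA gene of 73 bases within Egfl7, and Gm20532, a coding gene that overlaps Egfl7 by 6482 bases on the same strand, had no read in either library, and the libraries began from RNA longer than 200 nucleotides. The 5 antisense genes and pseudogenes listed opposite Stab2 had no read in either.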
